A study of Mus musculus with 4 samples.

Results

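Cell division genes were followed with and without induced Ctcfl in NIH3T3, a long-established mouse fibroblast cell line. The product of Ctcfl, known as BORIS, is a relative of the insulator protein CTCF and is normally made in the testis. The genes were 60 listed regulators of the cell cycle, chosen by name and sorted by phase, of which 59 were measured among 19938 named genes. They comprised 14 G1 cyclins, kinases and inhibitors, 11 members of the E2F and Rb families, and 34 of 35 genes of G2/M and the spindle. The missing one was Ccnb1, for which the annotation used gave no probe set. Each gene was represented by its brightest probe set.

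All 4 samples came from a single stable clone that carries the inducible plasmid pBI-EGFP-FLAG-mCtcfl together with pTA-N. In this Tet-Off system doxycycline represses the transgene. The 2 control samples were kept in 2 µg/ml doxycycline, and the 2 Ctcfl samples spent 48 h in medium without the drug. Withdrawal of doxycycline and induction of Ctcfl always coincided, so their effects cannot be told apart. Whether replicates came from separate cultures is not in the labels. P-values then reflect only how much these arrays spread, possibly for technical reasons, and 2 arrays per group limit the precision. Levels below are deposited log2 RMA values, on which a difference of 1 is a doubling, and every change is Ctcfl minus control on that scale. A level cannot be compared between genes, since each probe set has its own response.

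The induction was seen in the arrays. Ctcfl read 7.77 and 7.71 in the control arrays against 10.37 and 10.35 in the Ctcfl arrays (log2 change 2.62, SE 0.08, adjusted p = 5.38e-04 by limma). Its paralog Ctcf had a change of -0.16 (SE 0.08, adjusted p = 0.537). All 9 fibroblast markers lay above the upper quartile of their array on each of the 4 arrays, with a mean of 10.20 on both control arrays and of 10.05 and 10.01 on the Ctcfl arrays. Endothelial and germ cell markers, 7 in all, were below the array median throughout. Epithelial markers averaged 4.92 to 5.12 and immune markers 5.25 to 5.32. None of the 25 measured markers passed, and 4 had an unadjusted p under 0.05, the fibroblast genes Pdgfrb (-0.56), Col3a1 (-0.38) and Pdgfra (-0.29) and the keratin gene Krt8 (0.575). The part of these marker differences in the results below was not tested.

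Passage through the cell cycle is driven by cyclins bound to cyclin-dependent kinases (Cdks). In G1, D-type and E-type cyclins with their kinases phosphorylate the Rb family of pocket proteins, which frees E2F transcription factors to switch on genes of S phase. Inhibitors of the Ink4 and Cip/Kip families hold these kinases back. Later, the MuvB complex with B-Myb and FoxM1 turns on the genes of G2 and mitosis, many of which carry the short promoter element named CHR (cell cycle genes homology region). NIH3T3 cells are known to have lost the Cdkn2a locus, which bears on how its probe set can be read.

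Cell cycle genes differed little between Ctcfl and control arrays, and the differences had a median size of 0.1175 in the G1 genes, 0.125 in the E2F and Rb genes and 0.065 in the mitotic genes, against 0.095 over all genes. None of the 59 members passed an adjusted p of 0.05 by limma, where 0.0451% of all genes did. At an unadjusted p under 0.05 there were 3 members higher (background 5.36% of all genes) and 4 lower (background 5.32%), together 11.9% of the members against 10.7% of all genes. The members' share was thus near that of all genes. Of these 7 members, 6 belonged to the 25 genes of G1 and the E2F and Rb families. They were the inhibitors Cdkn2d and Cdkn2c and the kinase Cdk6, which were higher in the Ctcfl arrays, and E2f3, E2f8 and the pocket protein gene Rbl1, which were lower. The last was the spindle gene Psrc1, also lower. A difference of at least 0.2 in either direction was measured for 9 of 59 members (15.3%, against 18.5% of all genes), 7 of them in the G1 and E2F/Rb genes and 2 in the 34 mitotic genes. That was 28.6% of the G1 genes, 27.3% of the E2F and Rb genes and 5.88% of the mitotic genes. The groups did not overlap for 35 members (59.3%, against 41.1% of all genes). By phase this was 85.7% of the G1 genes, 63.6% of the E2F and Rb genes and 47.1% of the G2/M genes. The G1 share counts Cdkn2a and Cdkn2b, whose low readings cannot be separated from background, and some narrow separations. For Cdkn2b the nearest Ctcfl and control arrays read 5.21 and 5.22, and for Cdk2 8.66 and 8.67. The members' replicates were also closer together, with a median gap of 0.05 between control arrays and 0.09 between Ctcfl arrays, against 0.10 and 0.11 over all genes.

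With variances allowed to depend on intensity and made robust to outlying genes, limma called 5 of the 59 members (8.47%), against 2.40% of all genes. These were Cdkn2d and Cdk6, called higher, and E2f3, E2f8 and Rbl1, called lower. The 2.40% is not a background of like brightness, and brightness matters where variances depend on intensity. It includes the dimmest genes, while 58 of the 59 members were among the 13291 genes kept when those were left out. Whether members were called more often than other genes of their brightness in that fit was not tested. The number of calls over all genes was 479 in that fit and 9 in the one reported here, so these 5 members rest on the choice of variance model. No other setting tried called any member. A fit with same-numbered arrays paired, and one with the pairing crossed, called 0 genes, Ctcfl included, so neither could have called a member. The adjusted p of 0.651 by limma, given below as an upper end over the alternatives, comes from the first of these. Fits with an array left out, where a group keeps a single array, could not decide it either.

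**Figure D1:**
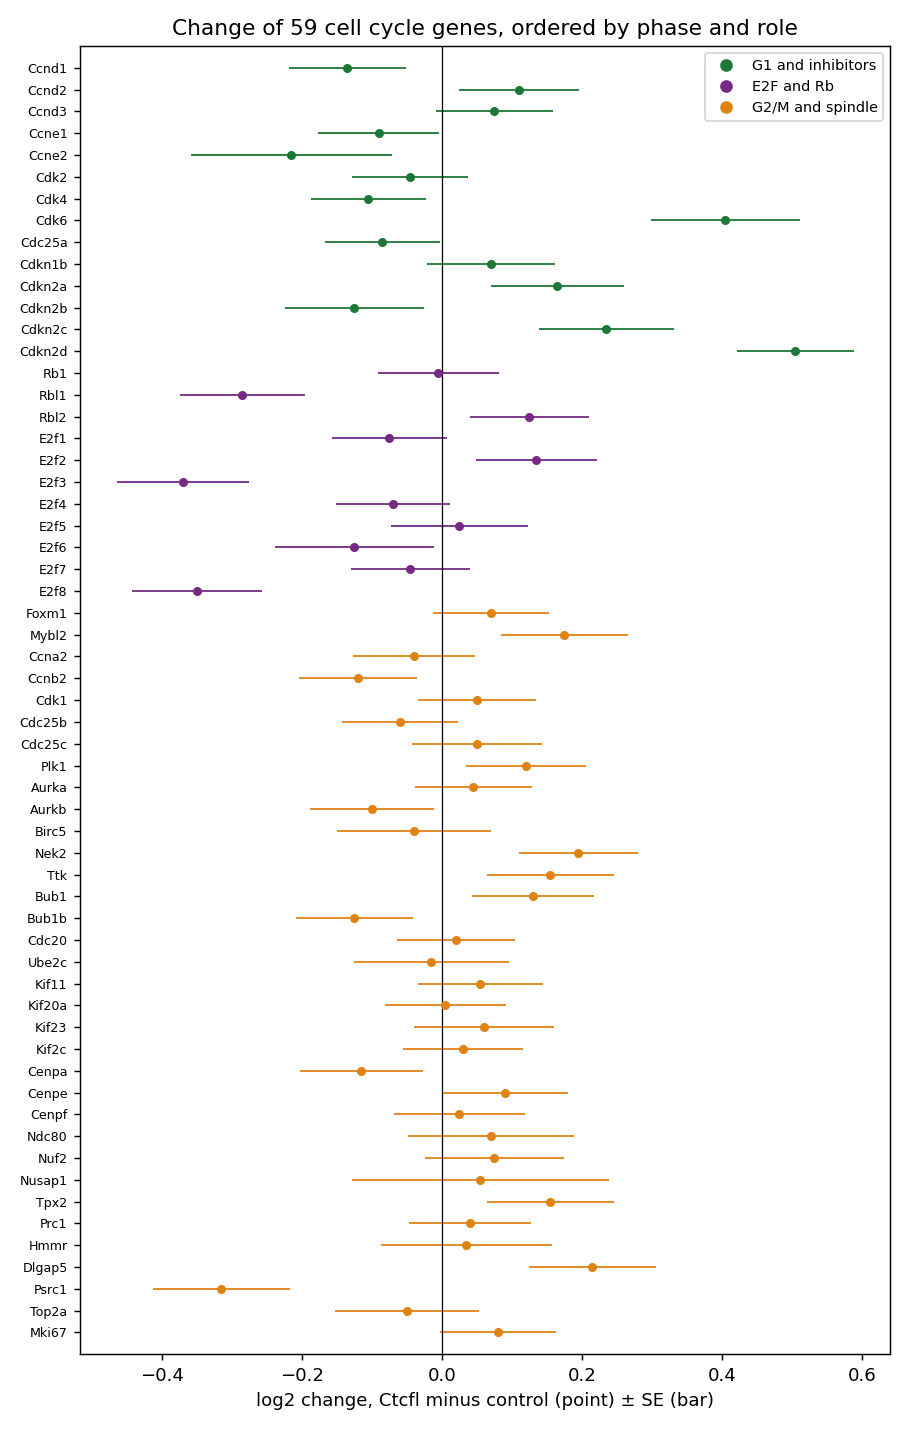
Log2 change (Ctcfl minus control, x axis) of the 59 measured genes, in rows ordered by phase and role, with the standard error from limma as a bar (2 arrays per group). Cdkn2d (0.505) and Cdk6 (0.405) lie farthest right, E2f3 (-0.37) and E2f8 (-0.35) farthest left, and most G2/M and spindle genes (orange) lie close to 0.

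The highest change among the members was that of a single Ink4 inhibitor gene, Cdkn2d. Cdkn2d, which encodes an Ink4 inhibitor of Cdk4 and Cdk6, read 7.64 and 7.62 in the control arrays and 8.16 and 8.11 in the Ctcfl arrays. Both Ctcfl arrays were well above both controls, and the replicates lay within 0.05 of each other in each group. The change was 0.505 (SE 0.08, 1.42-fold, 95% interval 0.30 to 0.71, adjusted p = 0.180 by limma). Its adjusted p ran from 0.00132 with the intensity trend to 0.651 over the alternatives, and its change from 0.48 to 0.53 when any array was left out. Cdkn2c, a further Ink4 inhibitor, read 9.24 and 9.23 against 9.38 and 9.56, with no overlap but a wide gap between the Ctcfl arrays (change 0.235, SE 0.10, adjusted p = 0.466). Cdkn1b, the Cip/Kip inhibitor of Cdk2 complexes, read 8.23 and 8.21 against 8.22 and 8.36, so the groups overlapped (change 0.07). A dimmer probe set of Cdkn1b had a change of 0.115, with Ctcfl arrays at 5.27 and 6.04 on either side of the controls.

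The neighbouring inhibitor genes Cdkn2a and Cdkn2b had low readings. Cdkn2a, which encodes Ink4a and Arf, read 5.12 and 5.08 against 5.18 and 5.35 (change 0.165, SE 0.10). Cdkn2b read 5.25 and 5.22 against 5.01 and 5.21 (change -0.125, SE 0.10). Both were close to the median of all probe sets, which was 5.20 to 5.24 on the 4 arrays. No detection calls were used, so these readings cannot be separated from background, and their small differences describe the probe sets only.

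Of the kinases that these inhibitors act on, Cdk6 was higher in the Ctcfl arrays and Cdk4 slightly lower. Cdk6 read 9.04 and 8.92 in the controls and 9.49 and 9.28 in the Ctcfl arrays. The groups were separate, though the replicates of each differed by more than for Cdkn2d (change 0.405, SE 0.11, 1.32-fold, 95% interval 0.15 to 0.66, adjusted p = 0.342, and 0.00711 to 0.651 over the alternatives). Cdk4, the other partner of the D-type cyclins, read 11.52 and 11.50 against 11.40 and 11.41, a small and tight difference (change -0.105, SE 0.08). Cdk2, the kinase of E-type and A-type cyclins, had a change of -0.045, and Cdc25a, the phosphatase that activates Cdk2, one of -0.085. For Cdk4, Cdk2 and Cdc25a both Ctcfl arrays were below both controls, yet none of these differences passed. For Cdk2 the separation was narrow, with 8.67 and 8.70 in the controls against 8.62 and 8.66.

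The 3 D-type cyclins did not share a direction. Ccnd1, the D-type cyclin best known as a target of growth factor signals, read 11.29 and 11.22 against 11.13 and 11.11 (change -0.135, SE 0.08). Ccnd2 read 10.57 and 10.62 against 10.74 and 10.67 (change 0.11, SE 0.09). Ccnd3 read 7.61 and 7.54 against 7.65 on both Ctcfl arrays (change 0.075, SE 0.08). In each the groups were separate, Ccnd1 lower and the other two higher, and none passed. Ccne1, an E-type cyclin that activates Cdk2 at the start of S phase, had a change of -0.09 (SE 0.09). Its paralog Ccne2 read 7.56 and 7.48 against 7.10 and 7.51, so its change of -0.215 (SE 0.14) came from Ctcfl replicate 1 and was -0.01 without that array.

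**Figure D2:**
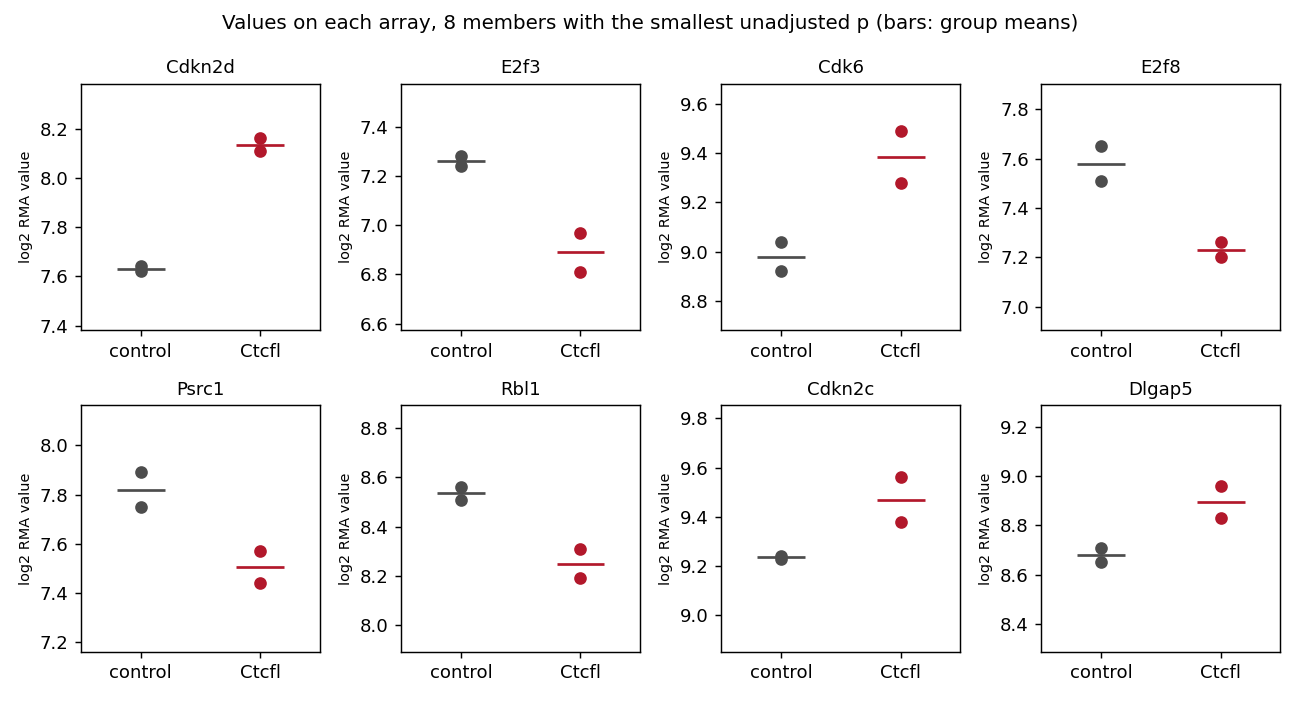
Deposited log2 values on each of the 4 arrays (points, 2 per group) with group means (bars) for the 8 members with the smallest unadjusted p. Each panel spans 1 log2 unit. The groups do not overlap in any of the 8 panels. Choice by smallest p favours this, so it is no separate result, and 41.1% of all genes do not overlap. The gap is widest for Cdkn2d, whose control arrays sit at 7.62 and 7.64 and Ctcfl arrays at 8.11 and 8.16.

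Among the E2F factors, E2f3 and E2f8 were lower in the Ctcfl arrays and the others differed little. E2f3, an activator E2F that works at entry into S phase, read 7.28 and 7.24 in the controls and 6.81 and 6.97 in the Ctcfl arrays. Both Ctcfl arrays were lower (change -0.37, SE 0.09, 1.29-fold, 95% interval -0.60 to -0.14, adjusted p = 0.330, and 0.0476 to 0.651 over the alternatives). A dimmer probe set of E2f3 pointed the same way, with 7.06 and 6.83 against 6.67 and 6.64 (change -0.29). E2f8, an atypical E2F that represses E2F targets late in S phase, read 7.65 and 7.51 against 7.26 and 7.20, again without overlap (change -0.35, SE 0.09, 1.27-fold, adjusted p = 0.342, and 0.0438 to 0.651 over the alternatives). Its close relative E2f7 read 8.12 and 8.11 against 8.11 and 8.03 (change -0.045).

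The activator E2f1 read 8.04 on both control arrays against 7.97 and 7.96 (change -0.075, SE 0.08). E2f2, also an activator, read 5.66 and 5.75 against 5.86 and 5.82 (change 0.135, SE 0.09). E2f4, a repressor E2F that pairs with pocket proteins in resting cells, read 8.75 and 8.73 against 8.68 and 8.66 (change -0.07, SE 0.08). E2f5, of the same class, read 7.41 and 7.26 against 7.30 and 7.42 (change 0.025). E2f6, which represses with Polycomb-type partners, read 4.09 and 4.08 against 3.82 and 4.10, near the lower quartile of the arrays (change -0.125). Of the 8 factors, 6 had lower and 2 higher values, with a median of -0.07 against 0.00 over all genes.

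The pocket proteins differed from each other. Rbl1, which encodes p107, read 8.51 and 8.56 in the controls and 8.19 and 8.31 in the Ctcfl arrays, with no overlap (change -0.285, SE 0.09, 1.22-fold, 95% interval -0.50 to -0.07, adjusted p = 0.387, and 0.0490 to 0.651 over the alternatives). Rbl2, which encodes p130, the pocket protein most abundant in resting cells, read 6.87 on both control arrays and 6.95 and 7.04 on the Ctcfl arrays (change 0.125, SE 0.09). Rb1, the retinoblastoma gene itself, read 6.39 and 6.49 against 6.42 and 6.45 (change -0.005, SE 0.09, 95% interval -0.22 to 0.21).

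The promoters of the 5 members called with the intensity trend, and of Psrc1, are shown because these genes had the clearest differences and E2F and CHR elements are where E2F and MuvB complexes act. Each run holds 250 bases before and 30 after a RefSeq start site on GRCm38.p6, read 5′ to 3′ on the gene's strand. Capitals mark matches on either strand to an E2F element (TTTCCCGC, TTTCGCGC, TTTGCCGC or TTTGGCGC), to a CHR element (TTTGAA or TTCGAA) or to a CTCF-type pattern (CC, any 3 bases, AG, any 2 bases, GGC). E2f3 and Psrc1 have 2 start sites each in the table, and the upstream one is printed.
Cdkn2d, chr9:21291180-21291459, minus strand: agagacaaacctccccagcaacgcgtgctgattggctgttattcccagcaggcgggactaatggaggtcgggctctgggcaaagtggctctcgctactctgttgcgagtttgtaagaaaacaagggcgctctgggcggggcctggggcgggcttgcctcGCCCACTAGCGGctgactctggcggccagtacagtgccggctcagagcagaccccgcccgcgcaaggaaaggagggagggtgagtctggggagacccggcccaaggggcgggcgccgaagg
Cdk6, chr5:3343643-3343922, plus strand: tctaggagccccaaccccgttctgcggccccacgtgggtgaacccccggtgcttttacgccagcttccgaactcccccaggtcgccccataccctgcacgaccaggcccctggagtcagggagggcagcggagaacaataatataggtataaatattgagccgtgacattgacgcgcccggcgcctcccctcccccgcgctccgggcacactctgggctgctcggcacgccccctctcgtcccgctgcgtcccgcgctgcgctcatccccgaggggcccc
E2f3, chr13:29986034-29986313, minus strand: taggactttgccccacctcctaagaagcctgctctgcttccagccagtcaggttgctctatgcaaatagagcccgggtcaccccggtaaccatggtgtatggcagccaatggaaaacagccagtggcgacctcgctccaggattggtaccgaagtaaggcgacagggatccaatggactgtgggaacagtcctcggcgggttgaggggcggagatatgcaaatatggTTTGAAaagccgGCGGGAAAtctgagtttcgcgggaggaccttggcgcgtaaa
E2f8, chr7:48881567-48881846, minus strand: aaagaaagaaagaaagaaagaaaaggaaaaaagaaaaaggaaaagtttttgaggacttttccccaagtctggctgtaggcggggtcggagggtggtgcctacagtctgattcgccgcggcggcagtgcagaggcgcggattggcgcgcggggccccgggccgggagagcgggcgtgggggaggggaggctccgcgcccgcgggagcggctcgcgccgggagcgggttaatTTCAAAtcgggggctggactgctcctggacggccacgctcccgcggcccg
Rbl1, chr2:157204505-157204784, minus strand: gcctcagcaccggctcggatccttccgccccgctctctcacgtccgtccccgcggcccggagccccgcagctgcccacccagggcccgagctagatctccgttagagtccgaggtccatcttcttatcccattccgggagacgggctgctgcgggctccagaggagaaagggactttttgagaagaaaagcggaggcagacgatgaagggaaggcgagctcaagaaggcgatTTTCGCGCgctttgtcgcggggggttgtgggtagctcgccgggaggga
Psrc1, chr3:108383554-108383833, plus strand: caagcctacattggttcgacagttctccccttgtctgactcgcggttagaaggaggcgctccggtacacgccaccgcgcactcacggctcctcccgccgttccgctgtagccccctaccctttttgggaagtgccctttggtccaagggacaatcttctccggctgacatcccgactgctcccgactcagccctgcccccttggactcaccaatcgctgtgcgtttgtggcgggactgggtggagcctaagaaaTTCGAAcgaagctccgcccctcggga

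E2f3, E2f8 and Rbl1 held cell cycle elements close to their start sites. Rbl1 had the E2F match TTTCGCGC from 18 to 11 bases before the start. In E2f3 the CHR match TTTGAA lay 23 to 18 bases before the start, followed by the E2F match GCGGGAAA on the opposite strand 11 to 4 bases before it. E2f8 had the CHR match TTCAAA, also on the opposite strand, 20 to 15 bases before the start. The palindrome TTCGAA stood 5 to 10 bases after the printed start of Psrc1. Cdkn2d had no E2F or CHR match, and its CTCF-type match GCCCACTAGCGG lay 91 to 80 bases before the start on the opposite strand. The Cdk6 window and the downstream E2f3 start had no match to these letters.

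Over the list, 47 of the 60 genes had 54 start windows in the RefSeq table. An E2F match stood in 3 of 10 windows of the E2F and Rb genes (30%), in 3 of 14 of the G1 genes (21.4%) and in 1 of 30 of the G2/M genes (3.33%), against 2.12% of all 32851 windows of this length. A CHR match stood in 20 of the 30 G2/M windows (66.7%), in 4 of 10 of the E2F and Rb genes (40.0%) and in 1 of 14 of the G1 genes (7.14%), against 18.4% of all windows. The CTCF-type pattern was found in 3 of the 54 windows (5.56%), those of Cdkn2d, Cdc25a and Mybl2, against 8.08% of all windows. Within the E2F and Rb genes, matches were not confined to E2f3, E2f8 and Rbl1. E2f7 (change -0.045) also had an E2F match, and E2f2 (0.135) and Rbl2 (0.125) a CHR match. Whether matches go with changes was not tested. Some genes have overlapping windows, and a match is a run of letters, not a measured site.

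The 34 genes of G2/M and the spindle stayed close to their control levels. Their changes ran from -0.315 (Psrc1) to 0.215 (Dlgap5), 24 were higher and 10 lower, and the median was 0.0475, against 0.00 over all genes. The groups did not overlap for 16 of the 34 (47.1%, against 41.1% of all genes), 10 higher (background 20.6%) and 6 lower (background 20.6%). The proliferation marker Mki67 read 10.03 on both controls and 10.09 and 10.13 on the Ctcfl arrays (change 0.08, SE 0.08, 95% interval -0.12 to 0.28). Differences of about 0.2 or less could not be told from the spread between arrays at this number of arrays, and the larger ones did not pass either.

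Both transcription factors of this phase had slightly higher values in the Ctcfl arrays, within the limits of the test. Mybl2, which encodes B-Myb, read 8.01 and 8.04 against 8.27 and 8.13, with no overlap (change 0.175, SE 0.09, adjusted p = 0.537). Foxm1 had a change of 0.07 (SE 0.08), with Ctcfl arrays at 8.23 and 8.26 against 8.19 and 8.16. Among the mitotic cyclins, Ccna2 (-0.04) overlapped between groups, while Ccnb2 read 8.64 and 8.61 against 8.47 and 8.54 (change -0.12, SE 0.08). Their kinase Cdk1 had a change of 0.05, and the phosphatases that activate it had changes of -0.06 (Cdc25b) and 0.05 (Cdc25c).

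Mitotic kinases were mixed. Nek2, a kinase of centrosome separation, read 9.29 and 9.23 against 9.43 and 9.48 (change 0.195, SE 0.08, adjusted p = 0.480). The checkpoint kinase gene Ttk read 7.94 and 7.86 against 8.0 and 8.11 (change 0.155, SE 0.09). Bub1, another checkpoint kinase, read 9.98 and 9.97 against 10.05 and 10.16 (change 0.13, SE 0.09). Plk1, a kinase of mitotic entry, read 9.72 and 9.75 against 9.81 and 9.90 (change 0.12, SE 0.09). In these 4 kinases, and in Aurka (9.94 and 9.88 against 9.96 and 9.95), the Ctcfl arrays were above both controls, by less than the test could call. With Bub1b, Aurkb and Birc5 added, the groups did not overlap for 7 of 8 genes (87.5%, against 41.1% of all genes). Of these, 5 were higher (background 20.6%) and 2 lower (background 20.6%). None of the 8 genes had an unadjusted p under 0.05 by limma. Bub1b, which encodes the checkpoint protein BubR1, read 9.43 and 9.45 against 9.34 and 9.29 (change -0.125, SE 0.08), and Aurkb, the kinase of the chromosomal passenger complex, had a change of -0.10 (SE 0.09). Aurka, the spindle pole kinase, had 0.045, and Birc5, the passenger subunit survivin, had -0.04. The anaphase genes Cdc20 (0.02), the activator of the anaphase-promoting complex, and Ube2c (-0.015), its ubiquitin-conjugating enzyme, overlapped between groups.

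Kinesins and kinetochore genes differed little. Kif11, Kif20a, Kif23 and Kif2c, motors of the bipolar spindle, the midzone, cytokinesis and microtubule disassembly, had changes from 0.005 to 0.06, and all 4 overlapped between groups. For Kif20a the 95% interval was -0.21 to 0.22. At the kinetochore, Cenpe (0.09), Nuf2 (0.075), Ndc80 (0.07) and Cenpf (0.025) overlapped, while Cenpa, the centromeric histone, read 9.60 and 9.64 against 9.45 and 9.56 (change -0.115, SE 0.09).

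Of the spindle proteins, 2 stood at opposite ends of the phase. Psrc1, a microtubule-binding protein of the spindle, read 7.89 and 7.75 in the controls and 7.57 and 7.44 in the Ctcfl arrays (change -0.315, SE 0.10, 1.24-fold, adjusted p = 0.385, and 0.0659 to 0.651 over the alternatives). Dlgap5, a spindle assembly factor also called HURP, read 8.71 and 8.65 against 8.83 and 8.96 (change 0.215, SE 0.09, adjusted p = 0.474). Tpx2, the activator of Aurora A, read 10.42 and 10.28 against 10.49 and 10.52 (change 0.155, SE 0.09). Prc1 (0.04), Hmmr (0.035), Nusap1 (0.055) and Top2a (-0.05), which encodes the topoisomerase that untangles chromosomes, overlapped between groups. A dimmer probe set of Top2a read 5.42 and 4.73 against 4.69 and 5.01, also with overlap (change -0.225). The mean of both Top2a probe sets had a change of -0.1375.

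Replicate arrays differed for the mitotic genes by about as much as the groups did, with a median gap of 0.06 between control arrays and 0.095 between Ctcfl arrays, against a median size of change of 0.065. Nusap1, a spindle protein, read 7.83 and 7.49 in the controls and 7.48 and 7.95 in the Ctcfl arrays. Hmmr, a spindle-associated hyaluronan receptor, read 8.98 and 8.78 against 8.79 and 9.04. In both genes control replicate 1 and Ctcfl replicate 2 were high, and control replicate 2 and Ctcfl replicate 1 low. The same order on both sides was found in 23 of the 34 G2/M genes (67.6%), in 7 of 14 G1 genes (50%), in 3 of 11 E2F and Rb genes (27.3%) and in 23.98% of all genes. The median deviation of the G2/M genes from each gene's own mean was 0.01 and -0.05 on control replicates 1 and 2 and -0.02 and 0.06 on Ctcfl replicates 1 and 2. What these pairs of arrays had in common was not tested.

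**Figure D3:**
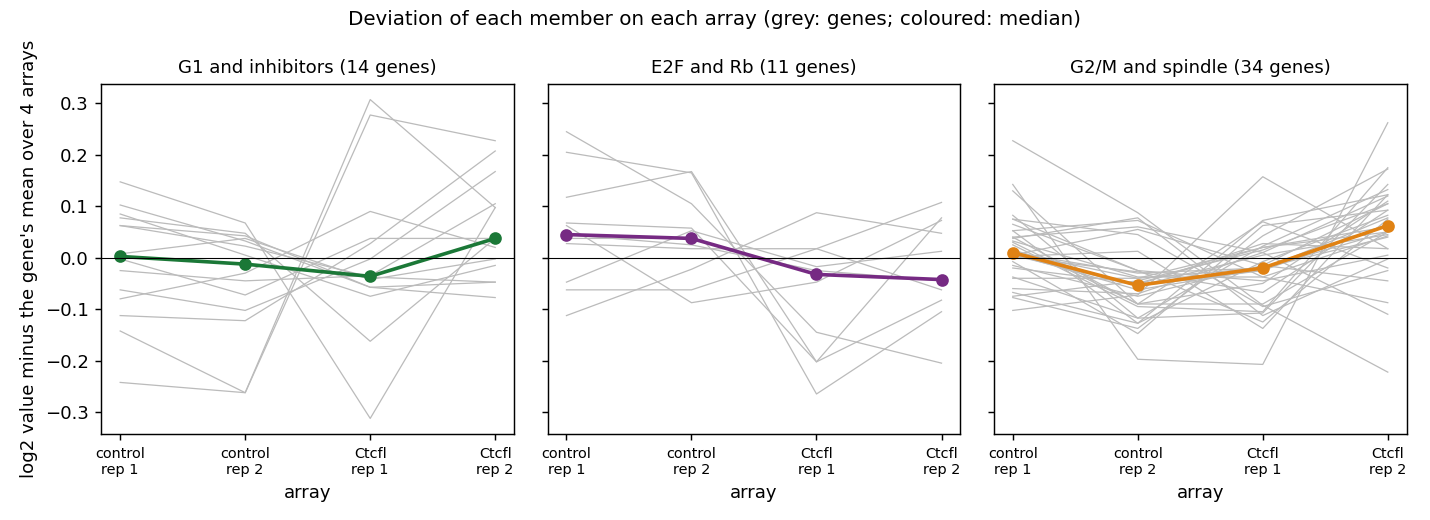
Log2 value of each member minus its own mean over the 4 arrays (y axis) on each array (x axis), by phase, with genes in grey and the median in colour. The G2/M median is lowest on control replicate 2 (-0.05) and highest on Ctcfl replicate 2 (0.06). It is higher on control replicate 1 (0.01) than on Ctcfl replicate 1 (-0.02), so it does not separate the groups. Single G1 and E2F/Rb genes such as Cdkn2d step between the control and Ctcfl arrays.

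The G2/M median therefore depended on which arrays were used. Leaving out control replicate 1 gave 0.08 and leaving out Ctcfl replicate 1 gave 0.0925, while the values were 0.0025 with control replicate 2 removed and -0.0075 with Ctcfl replicate 2 removed. The E2F and Rb median, -0.07 over all arrays, ran from -0.08 to -0.06, and the G1 median, 0.0125, ran from -0.0325 to 0.0325. Of the 59 members, 18 turned sign without at least 1 array, 15 of them G2/M genes and the other 3 Rb1, E2f5 and E2f6.

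**Figure D4:**
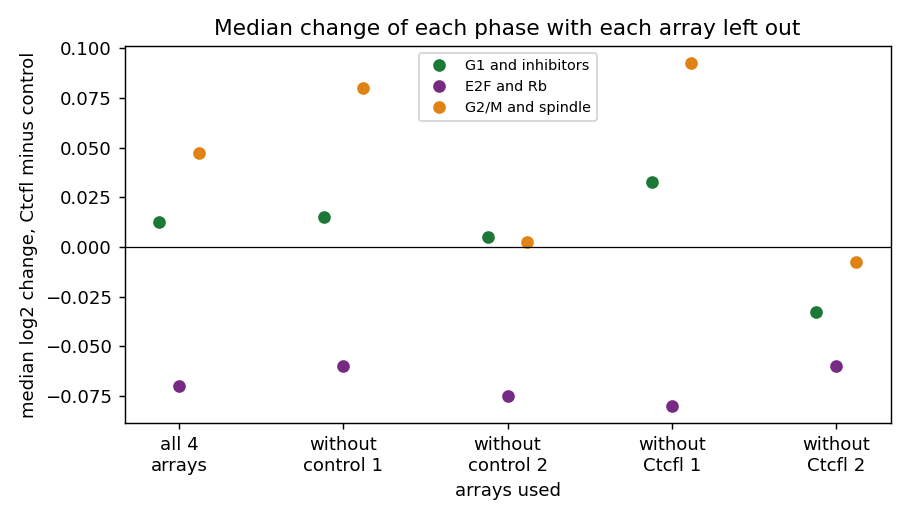
Median log2 change (Ctcfl minus control, y axis) of each phase over all 4 arrays and with each array left out (x axis). The E2F and Rb median stays between -0.08 and -0.06, while the G2/M median runs from -0.0075 to 0.0925.

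Further genes of the same machinery, listed by function, also held no call. Of 8 E2F partners and MuvB subunits none had an unadjusted p under 0.05 (median -0.01). The 3 with the smallest p were Mybl1, Lin9 and Tfdp2, and the size of each shifted when single arrays were left out. With 2 arrays per group this holds for any gene whose replicates differ, such as Cdk6 (0.30 to 0.51). Mybl1, a Myb factor, read 7.61 and 7.49 against 7.21 and 7.40 (-0.245, -0.15 without Ctcfl replicate 1 and -0.34 without Ctcfl replicate 2). Lin9, a MuvB subunit, read 6.82 and 6.61 against 6.55 and 6.53 (-0.175, -0.07 without control replicate 1 and -0.28 without control replicate 2). Tfdp2, an E2F partner, read 7.09 and 6.86 against 7.15 and 7.14 (0.17, 0.285 without control replicate 1 and 0.055 without control replicate 2). Of 14 other Cdk regulators, 1 was higher (7.14%, against 5.36% of all genes) and 2 were lower (14.3%, against 5.32% of all genes) at that level, with a median of 0.00. Ccng2, a cyclin tied to growth arrest, read 6.10 and 5.93 against 6.25 and 6.28 (0.25, SE 0.10). Pkmyt1, an inhibitory kinase of Cdk1, read 7.79 and 7.90 against 7.61 and 7.57 (-0.255, SE 0.09). Skp2, the ubiquitin ligase subunit that targets the Cdkn1b product, read 8.92 and 8.97 against 8.78 and 8.63 (-0.24, SE 0.09).

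None of 19 genes of the anaphase-promoting complex, its regulators and the spindle checkpoint had an unadjusted p under 0.05 (median -0.03), with the separase gene Espl1 at 0.20, Anapc4 at -0.16 and Cdc16 at -0.155. Among 37 other spindle, kinetochore and condensin genes, 2 were higher (5.41%, against 5.36% of all genes, so near the background) and none lower at that level, with a median of 0.01. Kif14, a kinesin of cytokinesis, read 7.55 and 7.38 against 7.78 and 7.81 (0.33, SE 0.10) for the brighter of its 2 probe sets, and its change was 0.12 with the mean of both (adjusted p = 0.693, and 0.0503 to 0.693 over the alternatives). The condensin subunit gene Ncapg read 9.86 and 9.76 against 9.97 and 10.16 (0.255, SE 0.10). Cenpm, a centromere gene, had -0.205. The array order seen in the mitotic members, with control replicate 1 above control replicate 2 and Ctcfl replicate 2 above Ctcfl replicate 1, held for 21 of these 37 genes (56.8%) and 9 of the 14 other Cdk regulators (64.3%). It held for 7 of the 19 anaphase-promoting complex and checkpoint genes (36.8%) and 2 of the 8 E2F partners and MuvB subunits (25%), where 23.98% of all genes showed it.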

How the data were processed

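RNA from 4 samples of NIH3T3 cells was measured on Affymetrix arrays, 2 control and 2 Ctcfl. Per the labels, the authors deposited log2 values from RMA as run in Expression Console. That method corrects background, quantile-normalises arrays and summarises probe sets, so a change shared by most genes would be removed. The version and settings are not given in the sources used here. Of 35511 probe sets with a value, 21789 had 1 gene symbol in the platform annotation of 2016, 1621 had several and 12101 had none and stayed unnamed. Through gene identifiers, 21698 matched RefSeq (GRCm38.p6), with 0 symbols changed. The brightest probe set per gene was kept (19938 genes, no filter on dim genes). Groups were compared with limma 3.58.1 (lmFit and eBayes) in R 4.3.3, with two-sided tests and Benjamini-Hochberg adjustment over all genes. The fit was tested on simulated data with changes larger than that of any member. That test does not show how the fit performs at the sizes reported for members. All members could be named, with values for every array given for the 24 with the smallest p and the cyclin D, inhibitor, pocket protein and E2F families, and from each further list the 3 genes with the smallest p. Values on each array of further genes were chosen after they were seen, as were the promoters shown. The members and lists were chosen with earlier results of these data known. Alternatives were quantile normalisation, median centring, leaving out the dimmest genes (13291 kept), a replicate block, the mean of probe sets, each array left out, and robust variances with an intensity trend (statmod 1.5.0). Promoter windows came from RefSeq. Figures were drawn with matplotlib 3.10.9.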

Additional observations from a re-analysis of the deposited data

How the results depend on the processing

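The number of genes called over all genes was 9 under quantile normalisation and with the mean of probe sets, 31 with median centring, 20 without the dimmest genes and 479 with the intensity trend and robust variances. It was 0 when any array was left out (1329 to 1663 at an unadjusted p under 0.05), where the lone array of a group is assumed to vary like the others. Same-numbered arrays deviated against each other (correlation across genes -0.10 over all genes, -0.34 over the 59 members and -0.52 over the 34 G2/M genes, 2 pairs, no shared source stated, and genes are not independent replicates). With the replicate block limma called 0 genes (1468 unadjusted), and with the pairing crossed, an alternative chosen after seeing the data, 0 genes (2105 unadjusted). Members called numbered 5 with the intensity trend and 0 under the other alternatives. Members higher at an unadjusted p under 0.05 numbered 5 under quantile normalisation, 5 without the dimmest genes, which removed E2f6, 8 with the intensity trend, and 1 to 3 with an array left out. Members lower numbered 4, 4 and 6 in the first 3 of these settings, where 11.2%, 15.4% and 13.5% of all genes passed in either direction. With an array left out they ranged from 0 (without control replicate 1) to 4, and 6.67% to 8.34% of all genes passed in either direction. With median centring the G1 median turned from 0.0125 to -0.0075. Rb1 turned to 0.0113 under quantile normalisation and Kif20a to -0.015 under median centring. Without single arrays, the changes of the members that turned sign ran as follows: E2f6 -0.265 to 0.015, Nuf2 -0.015 to 0.165, Ndc80 -0.07 to 0.21, Kif23 -0.02 to 0.14, Nusap1 -0.18 to 0.29, Cdc25c -0.015 to 0.115, Top2a -0.15 to 0.05, Prc1 -0.005 to 0.085, Ccna2 -0.085 to 0.005, Birc5 -0.15 to 0.07, Hmmr -0.09 to 0.16, Kif2c -0.005 to 0.065, Cenpf -0.055 to 0.105, E2f5 -0.05 to 0.10, Cdc20 -0.01 to 0.05, Ube2c -0.145 to 0.115, Rb1 -0.055 to 0.045, Kif20a -0.035 to 0.045. The log2 change of Ctcfl was 2.59 to 2.65 without single arrays, and it lost its call there, with the replicate block (adjusted p = 0.0710 by limma) and with the pairing crossed (adjusted p = 0.463). Where no value is given for a cause, the cause was not tested. With 2 arrays per group, a change under about 0.2 could not be told from the spread between arrays. Larger changes of members did not pass in the main fit either, up to Cdkn2d at 0.505 (adjusted p = 0.180 by limma).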
